A study of Mus musculus with 4 samples.

Results

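The integrated stress response was followed through 10 genes, Atf4, Ddit3, Atf3, Trib3, Chac1, Ddit4, Asns, Psat1, Phgdh and Slc7a11, taken by symbol from the 46078 mouse genes counted in single mouse embryonic stem (ES) cells. Each symbol had exactly 1 identifier in the tables, so all 10 genes were measured.

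The study sorted mouse ES cells that had been growing in 2i by forward and side scatter, either through a gate for small cells or ungated, plated them on laminin for 6 h in 2i or in N2B27, and sequenced single cells by Smart-seq2. 2i is a medium with inhibitors of the kinases MEK and GSK3 that holds ES cells naive, and N2B27 is the same basal medium without them, in which the cells leave the naive state. By the study's methods the routine 2i medium also held the cytokine LIF, which the labels do not name and which N2B27 lacked. The small gate was set for cells leaving mitosis or in G1. All groups shared the growth in 2i, the sort and the replating, so there were no unsorted cells against which stress from the handling could be read. By the study's methods the wild-type line was E14, so all groups are cells of 1 line. Each of the 4 pairs of medium and gate was 1 sample of 24 cells. No test between groups is given, and cells of a sample are not replicates of a condition. A 95% interval of a summed count covers counting error only, and that of a share of cells covers the sampling of cells within 1 sample only. All 2i cells carried 1 library number and all N2B27 cells another, and each such set is taken here as 1 plate and sequencing lane. The effects of medium, plate and lane therefore cannot be told apart. Within a plate the gates used different second indexes of the index pair, called index rows here.

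The integrated stress response starts when kinases that sense amino acid shortage, misfolded protein, haem shortage or double-stranded RNA phosphorylate the translation factor eIF2alpha. General translation falls while the mRNA of Atf4 is translated more, and the ATF4 protein then drives genes for amino acid supply, redox balance and, under long stress, cell death. Atf4 is therefore controlled largely at the level of translation, which mRNA counts do not show. Dissociation, sorting and replating are handling steps known to evoke stress responses.

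After a filter on cells, 75 of 96 cells were kept, 12 of 2i small, 22 of 2i ungated, 20 of N2B27 small and 21 of N2B27 ungated. Kept cells had between 1364155 and 4844170 counts on genes, with a median of 2658109. The cells of the small samples stood apart in quality. Of 24 cells of 2i small 12 were left out, 9 of which had more counts on spike-ins than on genes. Spike-in RNA is assumed here to have been added in equal amounts to every cell, which the study's methods do not state. In ungated cells it took at most 2.42% of the counts. It took up to 6.03% of the counts of a kept cell in N2B27 small and up to 40.9% in 2i small. A further kept 2i small cell had 15712 genes with a count, against at most 10335 in a cell of any other sample. ES cell markers were present in every sample (7 of 7 with counts, summed medians of 3889 to 5993 normalized counts per cell), and of 5 fibroblast markers none had counts in either N2B27 sample. Summed medians of primitive endoderm, trophectoderm and 2-cell-like markers were 0 in each sample, with single cells up to 533, 352 and 1.25 normalized counts.

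ATF4 with its C/EBP partners binds the C/EBP-ATF response element. The letters TGATGNAA of this element were sought on both strands of the RefSeq promoters (GRCm38.p6), 250 bases before to 50 bases after each start, and all 10 genes had a promoter there. Of all 32851 promoters 3.97% held the letters, as did those of Asns, Atf3, Chac1, Slc7a11 and Trib3, 5 of the 10 genes. The letters TGACGTCA of the cyclic AMP response element were in 1.79% of all promoters and in none of these genes. The letters TGACNNNGC of the antioxidant response element were in 12.4% of all promoters and in those of Asns and Phgdh. Such a match is a description of the letters and was not tested for binding. The 250 bases before the start are printed for the 4 genes whose match lies before the start, with the match to TGATGNAA or to its reverse complement in capitals. The match began 193 bases before the start in Chac1 (chr2:119350992-119351241, plus strand), 23 bases before it in Asns (chr6:7693210-7693459, minus strand), 66 and 47 bases before it in Slc7a11 (chr3:50443614-50443863, minus strand) and 110 bases before it in Atf3 (chr1:191183334-191183583, minus strand). In Trib3 it began 15 bases after the start.
Chac1: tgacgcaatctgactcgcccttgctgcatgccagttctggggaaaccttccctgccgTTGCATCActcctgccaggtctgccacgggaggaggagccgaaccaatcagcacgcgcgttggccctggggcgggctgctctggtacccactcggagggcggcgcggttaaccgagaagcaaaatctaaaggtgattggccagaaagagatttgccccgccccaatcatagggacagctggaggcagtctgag
Asns: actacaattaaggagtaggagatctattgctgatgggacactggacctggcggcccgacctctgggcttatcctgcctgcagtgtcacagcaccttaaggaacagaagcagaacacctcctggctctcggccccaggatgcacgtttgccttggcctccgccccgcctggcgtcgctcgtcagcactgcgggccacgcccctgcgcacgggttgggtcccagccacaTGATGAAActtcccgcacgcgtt
Slc7a11: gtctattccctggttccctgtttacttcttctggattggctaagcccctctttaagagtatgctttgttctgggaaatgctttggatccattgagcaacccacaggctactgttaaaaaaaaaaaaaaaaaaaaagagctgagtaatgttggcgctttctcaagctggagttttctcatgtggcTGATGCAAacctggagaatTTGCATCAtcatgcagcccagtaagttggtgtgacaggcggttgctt
Atf3: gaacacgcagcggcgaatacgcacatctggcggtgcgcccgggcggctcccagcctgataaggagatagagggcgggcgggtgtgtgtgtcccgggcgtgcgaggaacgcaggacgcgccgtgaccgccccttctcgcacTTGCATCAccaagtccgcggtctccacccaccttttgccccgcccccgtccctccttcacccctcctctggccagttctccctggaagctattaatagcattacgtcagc

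Values below are normalized counts per cell, the deposited counts divided by a size factor for each cell, unless stated. Levels fell into a group present in nearly every kept cell (Asns, Psat1, Phgdh, Atf4 and Slc7a11, with a count in 75, 74, 68, 70 and 70 of 75 cells) and a group with a count in fewer than 30 cells each (Ddit3 28, Chac1 29, Ddit4 29, Trib3 27 and Atf3 4). This division was made after the values were seen. Per kilobase of exon, which allows levels of different genes to be compared, Asns stood highest with a mean over all kept cells of 963 normalized counts per kilobase, followed by Psat1 (254), Atf4 (177), Phgdh (111), Chac1 (46.2), Trib3 (19.2), Ddit3 (18.5), Ddit4 (5.71), Atf3 (2.28) and Slc7a11 (0.573). Below Asns the sample means of neighbours in this order overlapped, except those of Ddit3 and Ddit4 (4.30 to 8.72 per kilobase): Psat1 ran from 156 to 316 per kilobase, Atf4 from 88.4 to 210 and Phgdh from 41.1 to 166. The means of Trib3 and Ddit3 differed by less than the spread between samples, in which Ddit3 ran from 15.4 to 24.1 per kilobase and Trib3 from 10.2 to 27.4. In the sparse genes the mean rested on few cells, and the 5 highest cells held 74.3% of the normalized counts of Chac1, 60.3% of Trib3, 57.7% of Ddit3 and 57.3% of Ddit4, against 12.9% for Asns.

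**Figure D1:**
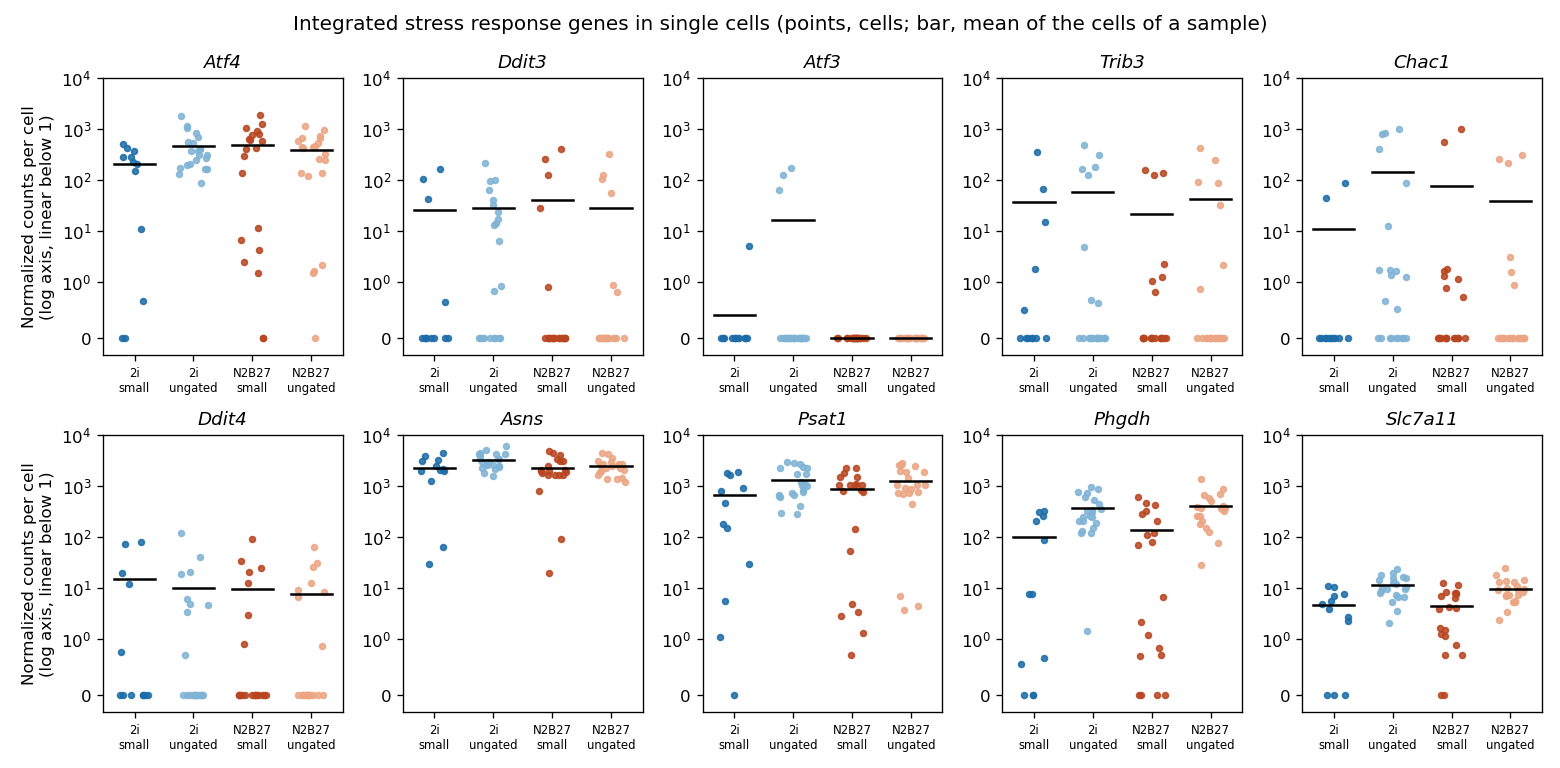
Normalized counts of the 10 genes in each kept cell (points) of the 4 samples, on a log axis that is linear below 1, with the mean of each sample as a bar. Asns was counted in all 75 cells, Atf3 is at 0 in all N2B27 cells, and Phgdh falls below 10 in 7 of 12 and 10 of 20 small cells but in 1 of 22 and 0 of 21 ungated cells.

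Atf4, the transcription factor at the centre of the response, had a mean of 208 normalized counts in 2i small, 478 in 2i ungated, 496 in N2B27 small and 398 in N2B27 ungated cells. Its lowest, median and highest cells were 0, 215 and 523 in 2i small, 89.3, 342 and 1820 in 2i ungated, 0, 422 and 1885 in N2B27 small, and 0, 432 and 1156 in N2B27 ungated. The 4 ranges overlapped. 2i ungated was the only sample in which every cell held at least 10 normalized counts of Atf4, against 9 of 12, 14 of 20 and 17 of 21 cells in 2i small, N2B27 small and N2B27 ungated.

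Ddit3 encodes CHOP, a factor that acts late in the response and favours cell death. It reached 10 normalized counts in 3 of 12, 10 of 22, 4 of 20 and 4 of 21 cells (in the order 2i small, 2i ungated, N2B27 small, N2B27 ungated), and sample means were 26.3, 28.5, 41.3 and 29. The share was highest in 2i ungated, 45.5% (exact Clopper-Pearson interval 24.4 to 67.8%), and lowest in N2B27 ungated, 19.0% (5.45 to 41.9%). Ddit3 overlaps Mars on the opposite strand and Smart-seq2 keeps no strand, so reads from their shared bases cannot be told apart.

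Atf3, a factor induced by ATF4 and by many other stresses, had 409 counts in all, in 4 cells. A single 2i small cell, the cell with most genes, held 13 counts, and 3 of 22 2i ungated cells held 396 (exact Poisson interval 358 to 437), at 64.1, 125 and 174 normalized counts. No count was found in 20 N2B27 small or 21 N2B27 ungated cells. For 0 counts a floor of 3 counts over a sample was set, while the exact Poisson upper limit is 3.69. Against the floor of 3, which covers counting error only, Atf3 was about 132.55-fold lower or more in N2B27 ungated than in 2i ungated cells. The fold would be smaller at 3.69 counts. Between the small samples no fold is given, since the 13 counts came from a single cell. The log2 ratio there was 0 with the highest cell left out. As 0 of 21 cells allows a share of up to 16.1% of cells (exact Clopper-Pearson), the 13.6% of 2i ungated cells with a count is within what so few cells could miss.

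Trib3, a pseudokinase that feeds back on ATF4, had sample means of 37.3, 58.1, 21.7 and 42.8 in the same order, and reached 10 normalized counts in 3 of 12, 5 of 22, 3 of 20 and 5 of 21 cells. A single 2i small cell at 364 normalized counts held 86.8% of the counts of its sample. Chac1, an enzyme that breaks down glutathione, had means of 11.1, 144, 77.8 and 38.2. Its cells above 10 stood at 43.7 and 89.5 in 2i small, at 12.6, 89.5, 403, 823, 832 and 1007 in 2i ungated, at 554 and 994 in N2B27 small, and at 220, 265 and 313 in N2B27 ungated. The 2 cells of N2B27 small thus set its mean, and the highest held 65.4% of the sample's counts. Ddit4, an inhibitor of mTORC1 also known as REDD1, was low in all samples, with means of 15.3, 10.015, 9.42 and 7.55 and 10 or more normalized counts in 4 of 12, 4 of 22, 5 of 20 and 4 of 21 cells.

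The amino acid genes were carried by most cells. Asns, asparagine synthetase, had means of 2257, 3306, 2271 and 2491. Its lowest cells were at 30.1 in 2i small, 1625 in 2i ungated, 19.8 in N2B27 small and 1199 in N2B27 ungated. Both small samples held 2 cells below 100, well under every ungated cell. Psat1, which makes phosphoserine from the product of PHGDH, had means of 664, 1344, 868 and 1250, with the lowest cells at 0, 283, 0.714 and 3.74 and the highest at 1920, 3052, 2262 and 2805. Slc7a11, the light chain of the cystine and glutamate exchanger xCT, was low but spread over nearly all cells, with means of 4.58, 11.3, 4.49 and 9.74 and 85, 277, 107 and 230 counts in all. The exact Poisson intervals of the summed counts were 67.9 to 105, 245 to 312, 87.7 to 129 and 201 to 262. Its annotated span holds 2 genes of the same strand, and 585 bases of a transcript are 92.5% identical to Tuba1b, so its counts are uncertain.

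Phgdh, phosphoglycerate dehydrogenase, catalyses the first step of serine synthesis from glycolysis and was low in many small cells. Its lowest, median and highest cells were 0, 7.53 and 332 in 2i small, 1.42, 282 and 952 in 2i ungated, 0, 38.0 and 616 in N2B27 small, and 28.4, 368 and 1390 in N2B27 ungated. The ranges overlapped, but 41.7% (exact Clopper-Pearson interval 15.2 to 72.3%) of 2i small and 50% (27.2 to 72.8%) of N2B27 small cells reached 10 normalized counts, against 95.5% (77.2 to 99.9%) and 100% (83.9 to 100%) of ungated cells. Gate and cell cycle phase moved together: by cyclone, a classifier of phase from gene pairs, 12 of 14 G1 cells were in the small samples and 30 of 34 G2/M cells in the ungated ones. Over all kept cells Phgdh reached 10 in 4 of 14 G1, 19 of 27 S and 34 of 34 G2/M cells. Within N2B27 small the mean was 14.6 in 6 G1, 165 in 11 S and 270 in 3 G2/M cells. Within 2i ungated it was 257 in 7 S and 424 in 15 G2/M cells. The Phgdh means in N2B27 ungated were 236 in 2 G1, 337 in 4 S and 456 in 15 G2/M cells. Those in 2i small were 46.1 in 6 G1 and 123 in 5 S cells, with 332 in the 1 G2/M cell. The G1 and S means were thus lower in small than in ungated cells wherever both gates held such cells. In N2B27 small Phgdh ran with genes detected (Spearman rho 0.62 over 20 cells) and against the spike-in share (-0.56), and in 2i small with rho of 0.54 and -0.37 over 12 cells. The part of phase, RNA content or cell quality in the difference was not tested.

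Phgdh has near-identical copies. The annotation (GENCODE M21) held 24 genes with a transcript at least 90% identical to a Phgdh transcript over at least 100 bases, of which 11 had a row in the tables, with 39544 counts in kept cells against 23988 for Phgdh itself. Of these, 96.9% were on Gm7901, which is 98.7% identical over 1597 bases. Reads that fit both genes cannot be assigned with certainty, so the level of Phgdh alone is uncertain. Gm7901 moved with Phgdh across cells (Spearman rho 0.80, 0.97, 0.87 and 0.97 within the samples in the same order), and the sum of Phgdh and its copies gave means of 261, 982, 359 and 1099. The gate ratio of this sum, -1.91 in 2i and -1.61 in N2B27 on the log2 scale, was close to that of Phgdh alone.

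**Figure D2:**
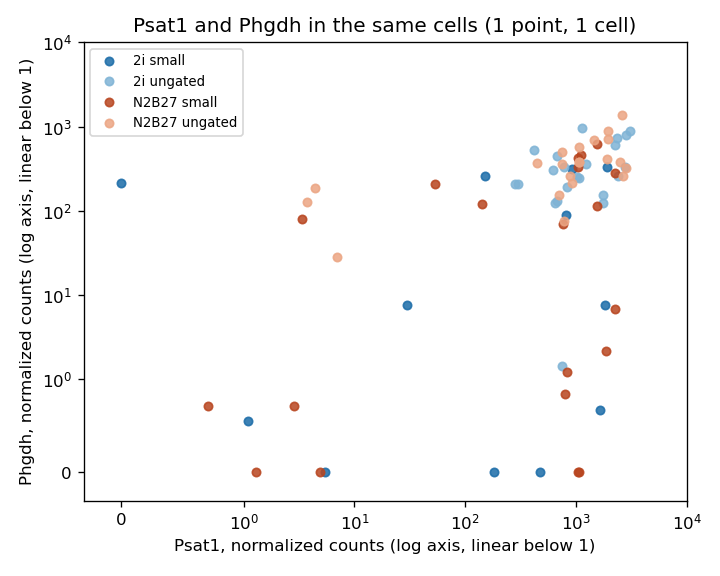
Psat1 (x axis) and Phgdh (y axis) in normalized counts, 1 point for each kept cell coloured by sample, on log axes that are linear below 1. Of the 18 cells below 10 for Phgdh, 7 are in 2i small, 10 in N2B27 small and 1 in 2i ungated, while 11 cells are below 10 for Psat1 and 6 for both.

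Small cells were compared with ungated cells of the same medium by the log2 ratio of the sample means, with a pseudocount of 1, and a ratio of at least 1 in size is counted as higher or lower. In 2i 6 of the 10 genes were lower in small cells and none higher, with a median of -1.08 beside -0.31 across all genes whose mean reached 20. Among all those genes 26.0% were lower and 17.6% higher. 7 of the 10 genes passed that minimum, and 4 of these were lower. The lower genes were Atf3 (-3.63), Chac1 (-3.59), Phgdh (-1.85), Atf4 (-1.19), Slc7a11 (-1.14) and Psat1 (-1.02), and relative to the median of all genes Psat1, Slc7a11 and Atf4 were lower by under 1. Of the 15 alternative settings Psat1 stayed below -1 in 6, Slc7a11 in 7 and Atf4 in 10, and in the first index row of 2i small Psat1 stood at -0.28 (7 cells, 1108 against 1344). Ddit4 alone was above 0, at 0.57. In N2B27 1 gene was lower, Phgdh (-1.60), and 1 higher, Chac1 (1.01), with a median of -0.13 over the 9 genes with counts beside -0.10 over all genes, of which 16.4% were lower and 12.8% higher. Slc7a11 (-0.97) and Trib3 (-0.95) came just short of 1 in size. Of the 7 genes that passed the minimum of 20, 1 was lower and 1 higher. The Chac1 ratio rested on 2 cells of N2B27 small, and was -0.059 from means of log2 values and -0.23 among cells in S. Phgdh was thus the gene lower in small cells by more than 1 in both media. Its direction held under all 15 alternative settings in both media, although in 2i its ratio was -0.65 when size factors were taken from the spike-ins. From summed counts, its ratio had exact intervals from -1.76 to -1.62 in 2i and from -1.54 to -1.43 in N2B27. Scaled to the spike-ins, Atf4, Chac1, Psat1 and Slc7a11 were higher in 2i small cells, at 0.82, 0.32, 0.42 and 0.89, while the median of all genes moved to 0.80. These values rested on 1 cell, the 2i small cell of most genes, in which spike-ins took 0.0673% of the counts. Without it, an alternative chosen after the data were seen, the spike-in scaling put all 10 ratios below 0, with Phgdh at -2.24 and a median of -2.05 beside -1.40 over all genes.

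N2B27 was compared with 2i within a gate, with plate and lane in the same contrast and with the samples already used for the gates. In small cells 2 of 10 genes were higher in N2B27, Chac1 (2.70) and Atf4 (1.25), and none was lower. The median was 0.20 beside 0.08 over all genes, of which 22.1% were higher and 19.2% lower. Chac1 and Atf4 were among the 7 genes that passed the minimum of 20. Scaled to the spike-ins both ratios turned, to -1.40 and -1.17, as the median of all genes moved to -1.58, but without the 2i small cell of most genes they were 3.67 and 1.58. Without a filter on cells Atf4 stood at -0.014, and among the cells in S (5 of 2i small and 11 of N2B27 small) Chac1 stood at -4.31. In ungated cells 2 of 10 genes were lower in N2B27, Atf3 and Chac1 (-1.89), and none was higher, with a median of -0.31 beside -0.02 over all genes, of which 9.42% were lower and 8.05% higher. Of the 7 genes that passed the minimum of 20, 1 was lower, Chac1. Chac1 stayed below -1 under all 15 alternative settings, with each gene's highest cell left out among them. The other 8 genes lay between -0.43 and 0.16 in ungated cells, among them the amino acid genes Asns (-0.41), Psat1 (-0.10), Phgdh (0.16) and Slc7a11 (-0.20).

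**Figure D3:**
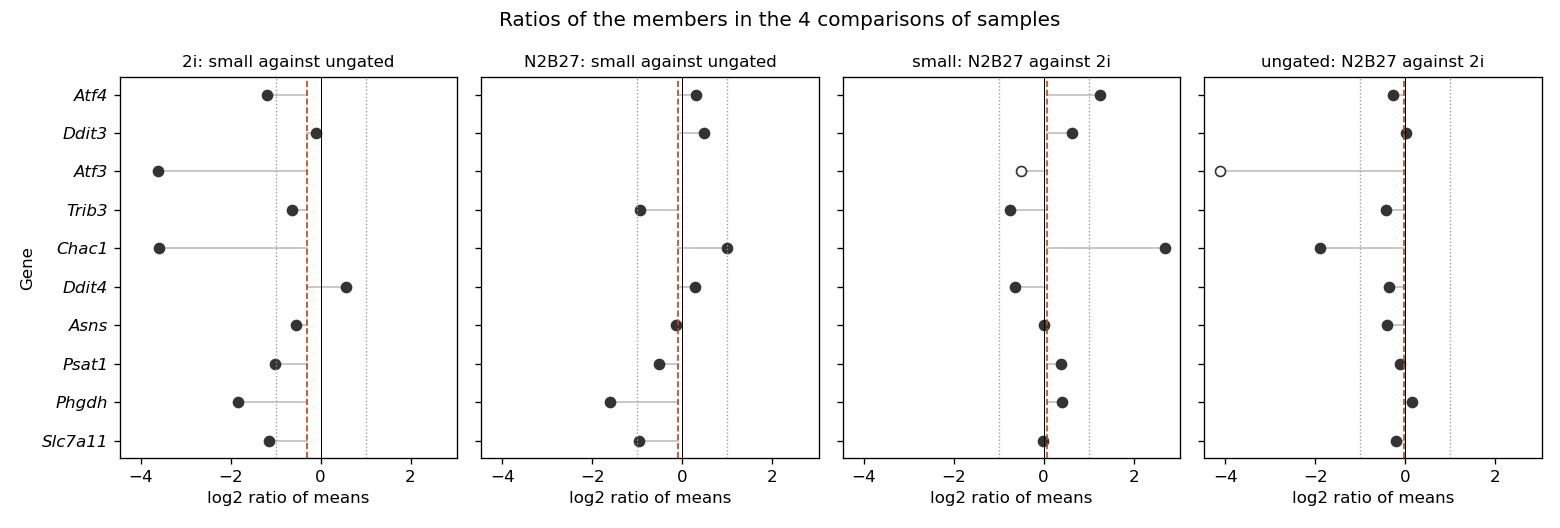
Log2 ratios of sample means (x axis) of the 10 genes (y axis) in the 4 comparisons, with the median of all genes as a dashed line and ratios of 1 in size as dotted lines. Open circles mark Atf3 where the first sample had no count, and Atf3 has no ratio between the N2B27 samples. Phgdh lies left of -1 in both comparisons of small with ungated cells, and Chac1 lies on opposite sides of 0 in the 2 media and in the 2 gates.

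Some cells held more than 1 of the sparse genes. Counting Ddit3, Atf3, Trib3, Chac1 and Ddit4 at 10 or more normalized counts, 38 of 75 cells held at least 1 of them, 6 of 12 in 2i small (50%, exact Clopper-Pearson interval 21.1 to 78.9%), 13 of 22 in 2i ungated (59.1%, 36.4 to 79.3%), 9 of 20 in N2B27 small (45%, 23.1 to 68.5%) and 10 of 21 in N2B27 ungated (47.6%, 25.7 to 70.2%). Of the 38 cells, 19 held 1 of the genes, 10 held 2, 6 held 3, 2 held 4 and 1 held all 5. The limit of 10 was chosen after the values were seen. The cell with all 5, a 2i ungated cell called G2/M, had 24.1 of Ddit3, 174 of Atf3, 317 of Trib3, 12.6 of Chac1 and 122 of Ddit4, with Atf4 at 307, below its sample's median. The cells with 4 were a 2i ungated cell with Atf4 at 1083 and an N2B27 small cell with Atf4 at 775. Chac1 and Trib3 were together in 8 cells, 61.5% of the 13 cells with Chac1 and 50% of the 16 with Trib3. All 3 cells with Atf3 held Ddit3 and Chac1 as well. The 17 cells with Ddit4 shared 7 with Ddit3, 6 with Trib3, 4 with Chac1 and 1 with Atf3. The overlap was not compared with that of other sparse genes. By phase, Chac1 and Trib3 reached 10 in 0 of 14 G1 cells each, in 4 of 27 S cells each, and in 9 and 12 of 34 G2/M cells, while Ddit4 did so in 3, 8 and 6.

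**Figure D4:**
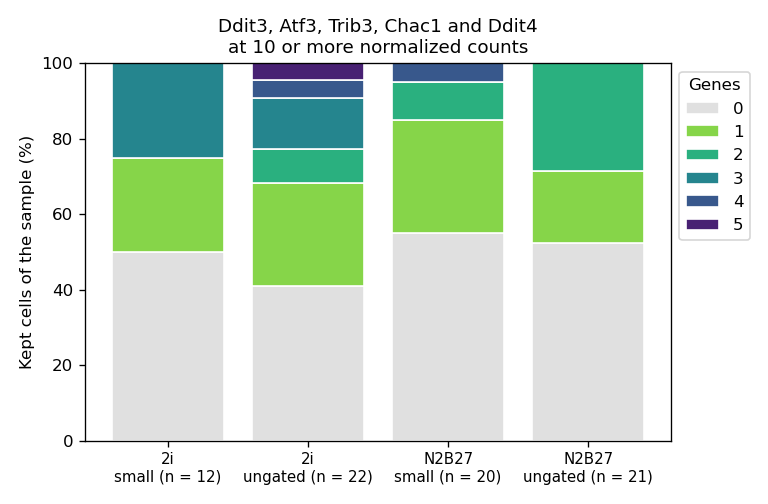
Share of the kept cells of each sample (y axis, percent) with 0 to 5 of Ddit3, Atf3, Trib3, Chac1 and Ddit4 at 10 or more normalized counts. Cells with none make up 6 of 12, 9 of 22, 11 of 20 and 11 of 21 cells, and cells with 4 or 5 of the genes are in 2i ungated and N2B27 small.

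Within samples the genes ran together loosely. Averaged over the samples in which both genes varied, the Spearman rho between pairs of the 5 sparse genes had a median of 0.28 (0.13 to 0.61 over 10 pairs). Between pairs of the 5 abundant genes the median was 0.22 (0.04 to 0.46), beside 0.05 over all pairs of 6640 genes. Only 4 of the 10 genes were among these 6640, so 0.05 is not a matched background for the sparse genes. Within single samples the 5th to 95th percentiles over all pairs ran from -0.46 to 0.64 in 2i small, with a median of 0.13. They ran from -0.37 to 0.37 in 2i ungated, -0.37 to 0.44 in N2B27 small and -0.37 to 0.39 in N2B27 ungated. Pairs with Atf3 used the 2i samples only, and in 2i small 1 cell held Atf3. Cells of a sample share depth and quality, and the sparse genes share many zeros, so these rho values are descriptions only. Atf4 ran most with Chac1 (0.46) and Slc7a11 (0.46), and Psat1 with Phgdh (0.44, with 0.30, 0.44, 0.40 and 0.61 in the 4 samples). The mean score of the 10 genes ran with genes detected at rho 0.85 in 2i small and 0.63 in N2B27 small, but at -0.24 and 0.35 in the ungated samples. The 5 other genes that followed the score most, averaged over the 4 samples, were Gm7901 (0.57), the Phgdh copy, Dym (0.53), Atf6b (0.52), Ppp2r3c (0.50) and Gm12033 (0.50), beside a 95th percentile of 0.32 over 6635 other genes.

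The rest of the pathway was described through lists, with counts over the genes whose mean reached 20, the same minimum as for the shares of all genes. For small against ungated cells these shares were 26.0% lower and 17.6% higher in 2i, and 16.4% and 12.8% in N2B27. They were 19.2% and 22.1% with N2B27 in small cells, and 9.42% and 8.05% with N2B27 in ungated cells. Of the eIF2alpha side (kinases, eIF2B subunits, phosphatase subunits), 3 of 11 genes were lower and 1 higher in 2i small than in 2i ungated cells, 2 of 13 lower and 1 higher in N2B27, 3 of 12 lower and 1 higher with N2B27 in small cells, and 1 of 12 lower and 0 higher in ungated cells. Impact, the gene higher in 2i small cells, went from 1.66 to 0.25 without the 2i small cell of highest spike-in share. Between media in small cells it went from -2.33 to -0.92 without that cell. Ppp1r15a encodes GADD34, which turns the response off, and was lower in N2B27 small (43.2) than in N2B27 ungated cells (140), at -1.68. Of 7 partner factors and other stress targets, 1, 1, 2 and 1 were lower and 1, 1, 1 and 0 higher in these comparisons. In 2i small cells Nupr1, a stress cofactor, had a ratio of 2.19 (251 against 54.4), but its median cell was at 4.68 and its highest at 2086, and the ratio was 1.09 with the highest cell of each sample left out. Sesn2, an inhibitor of mTORC1 that ATF4 induces, was lower (327 against 1153, -1.82). Amino acid transport had 4 of 6 genes lower in 2i small cells, with Slc7a3 (281 against 1284, -2.19) and Slc1a4 (18.8 against 89.0, -2.18) first, and 3 of 5 higher and 1 lower with N2B27 in small cells. In N2B27 0 of 5 moved past 1 in small cells, and in ungated cells 0 of 6 were higher and 1 lower in N2B27. The transporter lower with N2B27 in small cells was Slc1a5, at -1.18. Without the 2i small cell of highest spike-in share it stood at 1.28, and from summed counts at 0.88. Between the gates in 2i it went from 0.75 to -1.72 without that cell.

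Of the 9 other genes of amino acid and one-carbon synthesis, 4 were lower in 2i small and 3 in N2B27 small cells, with none higher in either. Pycr1, a proline synthesis enzyme, was lower in both, at -1.54 and -1.42. N2B27 against 2i gave 1 higher gene in each gate, Aldh18a1 (1.21) in small and Gpt2 (1.67) in ungated cells. Of 12 cytosolic tRNA synthetases, 4 were lower and 0 higher in 2i small, 3 lower and 2 higher in N2B27 small cells, with Mars lower in both at -1.33 and -1.24, and 1 moved each way with medium in small and none in ungated cells. Gars, the one lower with N2B27, went from -1.20 to -0.070 without the 2i small cell of highest spike-in share. Tars, the one higher, was at 1.25 without that cell.

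Neighbouring stress responses varied by list. Of the other arms of the unfolded protein response, 5 of 15 genes were lower and 1 higher in 2i small, 4 of 15 lower and 1 higher in N2B27 small, 4 of 16 lower and 4 higher with N2B27 in small, and 3 of 16 lower and 1 higher in ungated cells. Manf, the gene higher in 2i small, went from 2.41 to 0.50 without the 2i small cell of highest spike-in share. Between media in small cells it went from -2.18 to -0.27 without that cell. Of 8 heat shock genes, 0, 1, 1 and 0 were lower and none higher in these comparisons. Of the immediate early genes known to respond to dissociation, 2 of 4 were lower and 1 higher in 2i small and 2 of 6 lower and 0 higher in N2B27 small. N2B27 had 4 of 5 higher in small and 3 of 6 higher in ungated cells, with none of these lower. Over the 9 with any count, 7, 2, 0 and 1 were lower and 1, 1, 8 and 5 higher in the 4 comparisons. The shares of all genes given above are for means of 20 or more, so these looser counts have no matched share. Jun had ratios of -4.68, 4.65, 4.65 and -4.67 in the 4 comparisons. Its sample means were 0.556 in 2i small, 38.9 in 2i ungated, 38.2 in N2B27 small and 0.565 in N2B27 ungated. Over the 2 samples compared its mean thus fell just under 20 each time, at 19.4 to 19.7. Fos, which passed 20 in all but the first, had ratios of -5.17, 0.39, 5.54 and -0.013. Junb, a subunit of AP-1, was higher in N2B27 ungated than in 2i ungated cells (53.5 against 10.4, 2.26), as was Dusp1, a phosphatase of MAP kinases (455 against 131, 1.78). With N2B27 in small cells Dusp1 stood at -0.68 and Junb, with a mean under 20, at 2.56. Several immediate early genes are targets of MEK signalling, which 2i blocks. The part of medium, plate or lane in these values was not tested. Of the NRF2 targets, 2 of 6 were lower and 1 higher in 2i small, none of 5 moved past 1 in N2B27 small, 1 of 6 was lower and 2 higher with N2B27 in small, and none of 5 moved past 1 in ungated cells. Nqo1, the gene higher in 2i small, went from 2.43 to -0.68 without the 2i small cell of highest spike-in share. It was also the gene lower with N2B27 in small cells, where it went from -3.27 to -0.16 without that cell. Of the p53 targets, 3 of 10 were lower and 2 higher, 2 of 10 and 1, 2 of 9 and 2, and 2 of 10 and 0 in the same order. Cdkn1a, which encodes p21, was lower in N2B27 than in 2i in ungated cells (-1.74). In small cells its ratio of -2.61 rested on the 2i small cell of highest spike-in share, at 18956 normalized counts, and was -0.42 without that cell and -0.89 from summed counts.

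Cells that failed the filter were looked at in CPM, the counts of a gene scaled to an equal total in every cell. Of the 12 left-out 2i small cells, 9 had more counts on spike-ins than on genes. In these 12 cells Asns had a lowest, median and highest value of 8.64, 149 and 1521, against 2.56, 1071 and 2006 in kept ones, and Chac1 had no count. Atf4 was above 0 in 7 of these 12 cells, with a median of 11.2 against 100 in kept cells. The kept cell of 2i small with 40.9% spike-in counts held no Atf4, 30.1 of Asns and 7.53 of Phgdh. By index row, 7 kept 2i small cells in the first row had a mean of 1108 for Psat1 and 5 in the second had 44.1, while the rows of N2B27 small had 1081 (11 cells) and 607 (9 cells), so in 2i small the Psat1 mean rested on the first row.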

How the data were processed

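Single-cell libraries were made by Smart-seq2, without molecular identifiers, so counts are reads and not independent molecules. The submitters' processing notes name Trim Galore 0.4.4, GSNAP, HTSeq and mm10, and DESeq2. The authors deposited whole-number raw counts per gene and cell, not normalized, in 1 table of 46182 rows and 48 cells per medium. Reads over several genes are set aside by HTSeq and lower the counts of overlapping genes. Each column was matched to its sample by plate and index pair through the list of sequencing runs.

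The members and lists were chosen with earlier results of these data known. Rows that name no gene (ERCC spike-ins with 3.85% of counts, reads without a gene, ambiguous or unaligned) stayed out of totals. Symbols, positions and exon lengths came from GENCODE M21. The cell filter, applied to each plate, removed cells over 3 median absolute deviations low in counts or genes or high in mitochondrial share (scater 1.30.1). No doublet caller was run on these singly sorted cells. Size factors came from DESeq2 1.42.0 over 1227 genes with a count in every kept cell, and phases from cyclone in scran 1.30.0 (R 4.3.3). Ratios are log2 of means of normalized counts with a pseudocount of 1, and ratios from summed counts have exact conditional intervals. No p-value was computed, since each group is 1 sample. The ratio step was tested on simulated data for N2B27 small against N2B27 ungated, with genes of a mean of at least 20 changed. The simulation did not reproduce genes held by few cells or the quality of 2i small cells, so it does not cover those ratios. Copies were sought with blastn 2.17.0. Python 3.11.15, numpy 2.4.6, scipy 1.17.1, pandas 2.3.3 and matplotlib 3.10.9 were used. From each further list the 2 genes with the largest ratio in each direction could be named, among those with a mean of 20 or more and counts in 50% or more of cells in the higher sample. Jun, with a mean over the 2 samples compared just under 20, and Fos were named after the values were seen. The 15 alternatives changed the cell filter, normalization, summary over cells, pseudocount, depth (thinned to 1000000 counts), doubted cells and phase.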

Additional observations from a re-analysis of the deposited data

Results flagged for a closer look

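Chac1 and Atf4 moved in opposite directions under the same contrast in 2 settings, and the difference was not tested, since each group is 1 sample. Between small and ungated cells Chac1 had a log2 ratio of -3.59 in 2i and 1.01 in N2B27, and Atf4 of -1.19 in 2i and 0.32 in N2B27. Between N2B27 and 2i Chac1 had 2.70 in small and -1.89 in ungated cells, and Atf4 had 1.25 in small and -0.26 in ungated cells. Both contrasts use the same 4 sample means, so they are the same difference seen from either side. The N2B27 small mean of Chac1 rested on 2 of 20 cells, at 554 and 994 normalized counts. The gate ratio of Atf4 in N2B27 kept its sign under 13 of 15 alternative settings, but was -0.57 from means of log2 values. Its medians in N2B27 were 422 in small and 432 in ungated cells, so its change of direction between media depends on the summary.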

How the results depend on the processing

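With 1 sample per group and medium on separate plates, the values describe these libraries, and depth limits Slc7a11 and Atf3, at 699 and 409 counts in all. No paired analysis was possible because the labels number no replicates and the groups compared share at most 1 number. A fit of gate over both media with medium as a block would leave 1 residual degree of freedom and was not made. The cause of each shift named here was not tested. Size factors from the spike-ins moved the median of all genes from -0.31 to 0.80 between the gates in 2i and from 0.08 to -1.58 between media in small cells. Under them the median of the members became 0.37 in the first, with 2 members past 1, both higher, and Atf4, Chac1, Psat1 and Slc7a11 at 0.82, 0.32, 0.42 and 0.89, and -1.45 in the second, with 7 members past 1, all lower, and Atf4 and Chac1 at -1.17 and -1.40. Relative to all genes the members' medians were -0.43 and 0.13, against -0.77 and 0.12 with the main size factors. With spike-in size factors but without the 2i small cell of most genes, chosen after seeing the data, the members' medians were -2.05 and 0.75, and those of all genes -1.40 and 0.62. Poscounts size factors moved the members' median between media in ungated cells to 0.15, as that of all genes moved from -0.02 to 0.43. Without a cell filter Atf4 stood at 0.025 and Slc7a11 at 1.00 between the gates in 2i, and Atf4 at -0.014 between media in small cells, and with fixed limits Slc7a11 stood at 0.084 in 2i. Between the gates in 2i pooled counts left 3 members past 1. Between the gates in N2B27 a single member, Phgdh, was past 1 with fixed limits, CPM, scran or poscounts size factors, pooled counts, the highest cells left out, a pseudocount of 5 or thinning (count of 1 in each), and Chac1 was at -0.059 from means of log2 values. Between media in small cells 1 member was past 1 with fixed limits or pooled counts and 0 from means of log2 values. Cells in S, which number 5, 7, 11 and 4 in the 4 samples, gave 5 members past 1 between the gates in N2B27 and 5 between media in ungated cells, with Chac1 at -0.23 and, between media in small cells, at -4.31. Without the 2i small cell of most genes or of highest spike-in share, the number of members past 1 stayed within 1.5 times its value in each comparison.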
